A study of Danio rerio with 3 samples.

Results

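The cells described here carried the name NM Progenitor in the integrated annotation of a zebrafish single-cell RNA series. They were chosen by that deposited name, with no threshold on a measured value, and were 128 of 6264 cells. Of these, 96 came from embryos at 24 hours post fertilisation (hpf), 13 from 36 hpf and 19 from 48 hpf. All embryos were untreated and carried the transgene Tg(olig2:EGFP), in which olig2 regulatory sequence drives a green fluorescent protein. EGFP-positive cells were sorted from dissociated embryos, so cells outside that gate were not sampled and every share is of sorted cells. Each stage gave 1 library, which left no replicate and no test between stages or classes. The sources used here do not say how many embryos were pooled. The comparison classes were pMN1 (230 cells), pMN2 (125 cells) and pMN3 (212 cells) at 24 hpf, the classes named for the olig2-expressing motor neuron progenitor domain.

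NM is read here as neuromesodermal, since the tables do not spell it out. Neuromesodermal progenitors are cells of the vertebrate tailbud that can give rise to spinal cord and to the mesoderm that forms muscle and vertebrae. They are known for expressing tbxta, the zebrafish Brachyury gene of early mesoderm, together with sox2, a gene of neural progenitors. In fish they feed the growing end of the body axis while the trunk cord is already making neurons. The files used here hold values per cell and none per gene, so the name could not be checked against tbxta or sox2.

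The 24 hpf library held 1826 cells with a median of 8935.5 UMIs, the molecular tags by which RNA molecules are counted. The medians were 4569 UMIs at 36 hpf and 5774.5 at 48 hpf. The median share of UMIs from mitochondrial genes was 0.686% at 24 hpf, 1.06% at 36 hpf and 2.35% at 48 hpf. Full cell barcodes shared between libraries numbered 7, all between 24 and 36 hpf, and none was an NM Progenitor cell. NM Progenitor cells were 5.26% of the 24 hpf cells (exact 95% binomial interval 4.28 to 6.38) and held 7.06% of that library's UMIs. They were 0.636% of the 36 hpf cells (0.339 to 1.09) and 0.794% of the 48 hpf cells (0.478 to 1.24). Intervals cover counting error only.

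The first question was whether the same barcodes bore the same name in the tables made for each stage alone. At 24 hpf 66 of the 96 cells did, which is 68.8% (58.5 to 77.8). The other 30 cells were spread over 3 names, with 14 named NP, 9 named pMN2 and 7 named Lateral FP. Lateral FP is read as lateral floor plate, the strip beside the ventral midline of the cord, and the tables do not spell out NP. In the other direction the name was nearly closed. The 24 hpf table called 68 cells NM Progenitor, and 66 of them (97.1%, 89.8 to 99.6) kept that name in the integrated table. The 2 cells that left were shallow and rich in mitochondrial UMIs. The one that became pMN2 had 2989 UMIs at 4.82% mitochondrial, and the one that became RG (radial glia) had 1063 UMIs at 4.14%. At 24 hpf the integrated class thus held the cells of the stage class less 2, and 30 more.

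The 36 and 48 hpf tables have no class named NM Progenitor, so every later cell bore another name there. At 36 hpf 11 of 13 cells (84.6%, 54.6 to 98.1) were named Lateral FP there, 1 was named pMN1 and 1 pMN2. At 48 hpf 10 of 19 cells (52.6%, 28.9 to 75.6) were Lateral FP, 6 were RG, 2 were NP and 1 was pMN1. At 24 hpf, where the name NM Progenitor was in use, Lateral FP was the stage name of 7.29% (2.98 to 14.4). Seen from the floor plate name, the cells moved were few at each stage. They made up 3.38% of the 207 Lateral FP cells of the 24 hpf table, 6.71% of the 164 cells at 36 hpf and 5.71% of the 175 cells at 48 hpf. All 128 cells bore a single cluster number in the integrated table, number 17, and no cell of another name had it. The integrated clustering thus placed cells of 24 hpf that mostly had their own class together with later cells that the stage tables had named otherwise.

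**Figure D1:**
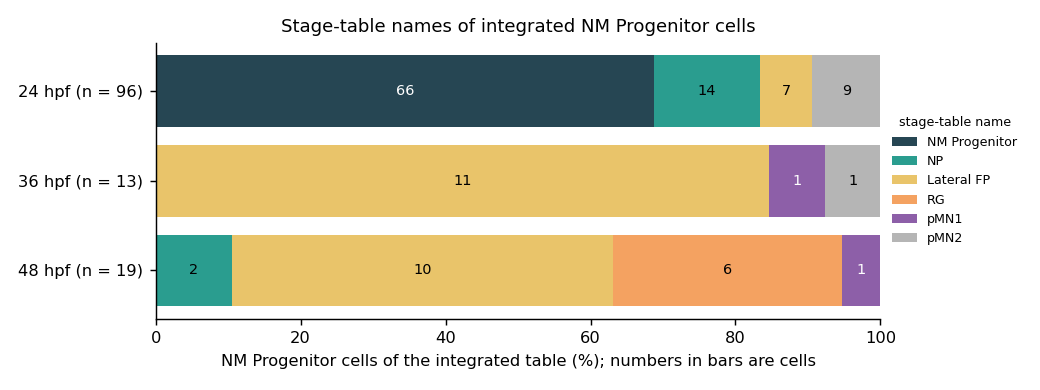
Stage-table names of the cells named NM Progenitor in the integrated table, as a percent of those cells at each stage, with the number of cells printed in each bar. The name NM Progenitor fills 66 of 96 cells at 24 hpf and is missing at 36 and 48 hpf, where Lateral FP fills 11 of 13 and 10 of 19 cells.

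At 24 hpf most NM Progenitor cells were called as cycling, at a lower share than in each pMN class by the integrated calls. Only the difference from pMN1 was called under every setting tried. That from pMN2 ended only with stage-table names, under which pMN2 is mostly other cells. Each cell has a score for genes of DNA synthesis (S) and for genes of the phases around division (G2M), and is called G1 where neither score is above 0. The scores come from the same cells whose genes were clustered, so the values below describe the classes and are no test. Of the 96 cells 42 were called S, 45 G2M and 9 G1. The share called S or G2M was 90.6% (82.9 to 95.6), against 100% in pMN1 (lower limit 98.4), 100% in pMN2 (97.1) and 98.6% in pMN3 (95.9 to 99.7). The NM Progenitor share was lower than in each pMN class by intervals that did not overlap, the size rule used for all shares here. It was not low beside the classes Pre-OPC, Lateral FP, NP1 and NP2 outside pMN. The share was 84.5% in the class named Pre-OPC (78.9 to 89.2) and 78.9% in Lateral FP (72.4 to 84.4), both overlapping NM Progenitor. In NP1, at 64.0% (53.2 to 73.9), and NP2, at 8.03% (4.08 to 13.9), it was lower than in NM Progenitor. Motor neurons, which no longer divide, give the level of such calls in neurons of this library. The level in progenitors that do not divide was not measured and need not be the same. In the motor neuron classes MN1 to MN5 of the same library 2 of 142 cells were called S or G2M (1.41%, 0.171 to 5.00). With the calls of the 24 hpf table the NM Progenitor share was 85.4% (76.7 to 91.8), and pMN3 was at 88.2% (83.1 to 92.2), so the difference from pMN3 was no longer called, nor was it among cells paired on UMI count, at -7.45 percentage points. The differences from pMN1 and pMN2, both still at 100%, were called there. When a score above 0.1 was required, every difference was called, at -15.6 percentage points from pMN1 and from pMN2 and -11.9 from pMN3. With classes taken by their stage-table names, the call against pMN2 ended as well, at -7.01, and so did that against pMN3, at -7.95. Those names were kept by 8 of 125 pMN2 cells and 73 of 212 pMN3 cells. The comparison with pMN2 was thus mostly with other cells, and does not show how stable the difference from the integrated pMN2 class is.

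With classes taken by their integrated names, the shares of S and of G2M calls in NM Progenitor cells lay between those of the pMN classes. G2M calls were 46.9% of NM Progenitor cells (36.6 to 57.3), 72.8% of pMN2 (64.1 to 80.4), 53.0% of pMN1 (46.4 to 59.6) and 23.1% of pMN3 (17.6 to 29.4). The NM Progenitor share was thus lower than in pMN2 and higher than in pMN3, and it overlapped pMN1. S calls were 43.8% of NM Progenitor cells (33.6 to 54.3) and 75.5% of pMN3, a lower share. The S shares of pMN1, 47.0%, and of pMN2, 27.2%, had intervals that overlapped it. Pre-OPC (43.0% S and 41.5% G2M) and Lateral FP (42.8% S and 36.1% G2M) overlapped NM Progenitor in both shares. By the 24 hpf table, G2M calls were 38.5% of NM Progenitor cells (28.8 to 49.0) and S calls 46.9%. The G2M difference was -25.9 percentage points from pMN2 and 23.8 from pMN3. When the classes were taken by their stage-table names, it turned to 12.4 and -2.93. Those names were kept by 8 of 125 pMN2 cells and 73 of 212 pMN3 cells. By stage-table names the S share of NM Progenitor was below each pMN class. The differences were -10.9 from pMN1, -19.4 from pMN2 and -5.02 from pMN3, none called. Against pMN3 the G2M difference was 20.2 and no longer called among cells paired on UMI count.

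**Figure D2:**
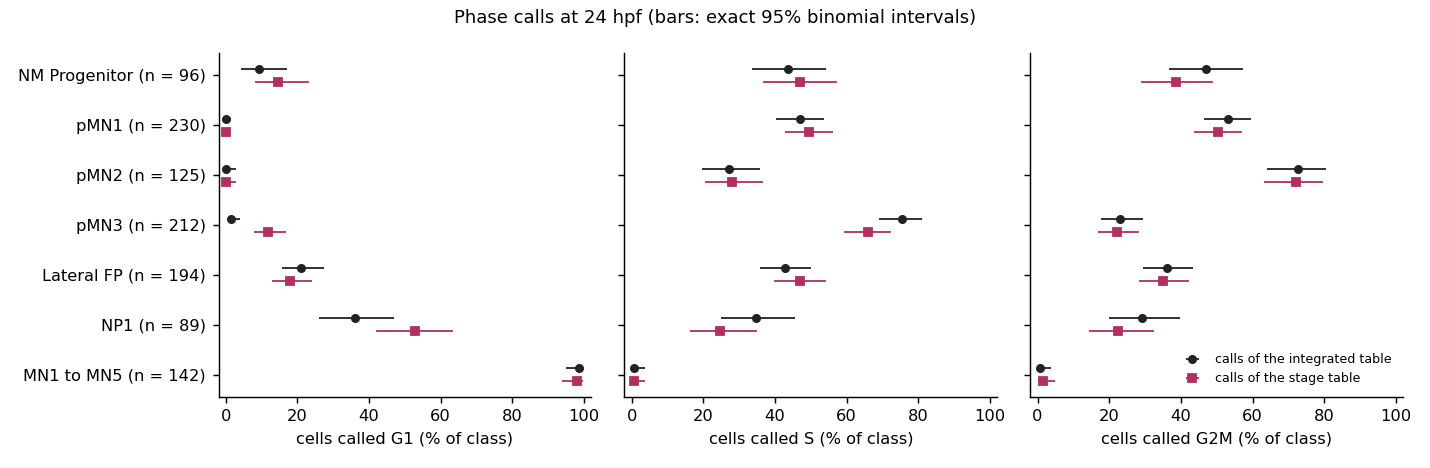
Share of cells called G1, S and G2M in 7 groups of classes at 24 hpf, as a percent of the class, with exact 95% binomial intervals. Circles are calls of the integrated table and squares calls of the 24 hpf table. NM Progenitor cells called G1 (9.38% and 14.6%) lie above pMN1 and pMN2, which have none, and far below the motor neuron classes. They overlap Lateral FP (21.1% and 18.0%) and lie below NP1 (36.0% and 52.8%) by both sets of calls. They lie above pMN3 by the integrated calls (1.42%) and overlap it by those of the 24 hpf table (11.8%).

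Of the 6 comparisons of S or G2M score with a pMN class, 2 were called, both lower in NM Progenitor cells. The S score of NM Progenitor cells ran from -0.737 to 1.04, with a median of 0.0786 (interquartile range -0.224 to 0.333). Its medians in the other classes were 0.299 in pMN1, -0.0358 in pMN2 and 0.638 in pMN3 (0.223 to 0.922). For scores and other values per cell, a class was called different only where the NM Progenitor median lay outside the other class's interquartile range. By that rule the S score was lower than in pMN3, and it was not called against pMN1 (0.0704 to 0.633) or pMN2. The G2M score had a median of 0.134 (-0.0153 to 0.555), lower than in pMN1, where it was 0.349 (0.189 to 0.522). It was 0.919 in pMN2 (0.122 to 1.07) and 0.00194 in pMN3, neither called. Against pMN2 it became called, as lower in NM Progenitor, with the 24 hpf table's scores (-0.546) and among cells paired on UMI count (-0.909). The same call came with each filter on depth or mitochondrial share. Pairing and the filters also changed which pMN2 cells were compared, and pMN2 cells called S were shallower than those called G2M. Among paired cells the pMN2 median was 1.01, against 0.919 over all its cells. The part of this in the new calls was not tested. By stage-table names the difference in G2M score from pMN2 was -0.0126 and not called. The deposited difference of the scores, S minus G2M, had a median of -0.0523 (-0.711 to 0.304) in NM Progenitor cells. That was close to pMN1, at -0.0458, and lower than in pMN3, at 0.635 (0.0619 to 0.947). In pMN2 it was -0.966 with an interquartile range from -1.23 to 0.638, so wide that no median between those limits could be called. A score has no true zero and is relative to the cells scored together, so differences and no folds are given. Against pMN3 the score difference was no longer called when cells were paired on UMI count, at -0.742, and with the 24 hpf table's scores neither it, at -0.245, nor the S score, at -0.198, was called.

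**Figure D3:**
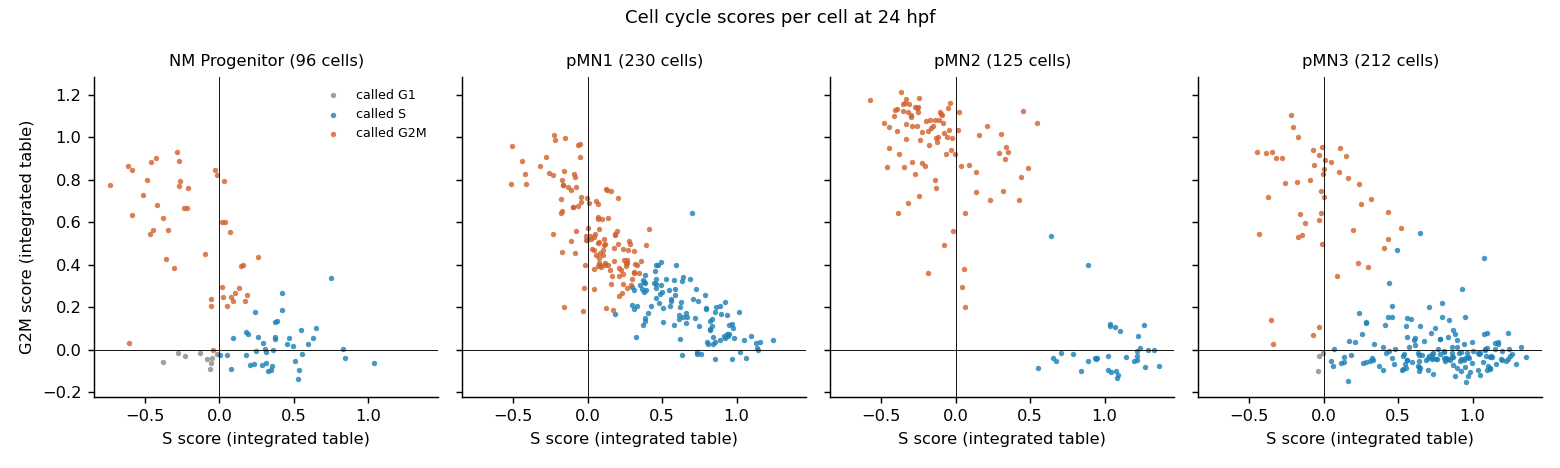
S score (horizontal) and G2M score (vertical) of each cell at 24 hpf by the integrated table, 1 panel per class, with points coloured by the deposited phase call. The 96 NM Progenitor cells form an S arm and a G2M arm with 9 cells called G1 in the lower left quadrant at S scores from -0.379 to -0.0132, and their S arm is centred at lower S scores than in the pMN panels.

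Cells called S were also compared by S score, a subset defined by the scores themselves, so these values only describe it. The 42 NM Progenitor cells called S had a median S score of 0.365 (0.247 to 0.522). The 108 pMN1 cells called S had 0.650 (0.471 to 0.857), the 34 pMN2 cells 1.06 (0.902 to 1.22) and the 160 pMN3 cells 0.788 (0.554 to 0.987), so the NM Progenitor median was lower than in all 3. By the scores of the 24 hpf table the same cells had medians of 0.207 in NM Progenitor, 0.340 in pMN1 (0.249 to 0.452), 0.496 in pMN2 (0.423 to 0.596) and 0.299 in pMN3 (0.156 to 0.439). There the value was again lower than in pMN1 and pMN2 but not called against pMN3.

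Cells called G2M were closer to the pMN classes. The 45 NM Progenitor cells called G2M had a median G2M score of 0.565 (0.292 to 0.776). This lay inside the interquartile ranges of pMN1, with a median of 0.512 (0.401 to 0.707), and of pMN3, with 0.748 (0.545 to 0.901), and below that of pMN2, with 1.02 (0.865 to 1.10). Their S score was low, with a median of -0.213 (-0.422 to 0.0400), against 0.0725 (-0.0791 to 0.193) in the pMN1 cells called G2M. Low S scores were not particular to NM Progenitor. In pMN2 the S score over all cells had an interquartile range that began at -0.250. No pMN2 cell was called G1, so its cells with such scores were called G2M too. Cells with both scores above 0 numbered 38 of 96 in NM Progenitor (39.6%, 29.7 to 50.1) and 177 of 230 in pMN1 (77.0%, 71.0 to 82.2). The share was thus lower than in pMN1, and its interval overlapped those of pMN2 (28.0%) and pMN3 (36.8%).

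More phase calls of NM Progenitor cells than of pMN cells lay close to the threshold by the integrated scores. The higher of a cell's 2 scores lay within 0.1 of the threshold at 0 in 15 of 96 NM Progenitor cells (15.6%, 9.02 to 24.5). It did so in 0 of 230 pMN1 cells (up to 1.59%), 0 of 125 pMN2 cells (up to 2.91%) and 8 of 212 pMN3 cells (3.77%, 1.64 to 7.30). Lateral FP, with 11.3% (7.24 to 16.7), overlapped NM Progenitor. By the scores of the 24 hpf table the share was 21.9% in NM Progenitor (14.1 to 31.5) and 11.8% in pMN3 (7.78 to 16.9), and these intervals overlapped. The integrated and the 24 hpf tables gave the same phase to 83 of 96 NM Progenitor cells (86.5%, 78.0 to 92.6). They did so for 93.9% of pMN1 (90.0 to 96.6), 99.2% of pMN2 (95.6 to 100) and 89.2% of pMN3 (84.2 to 93.0), so that only the difference from pMN2 exceeded the intervals. The 13 cells that changed were 6 from G2M to S, 2 from G2M to G1, 4 from S to G1 and 1 from G1 to S. The order of cells was largely shared by the tables, with Spearman's rho of 0.959 for the difference of scores over the 96 cells, which are the same cells and counts scored in both tables.

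NM Progenitor cells had the highest median UMI count of the larger classes at 24 hpf, but its lead over the pMN classes was not called. Their UMI counts ran from 1524 to 31813 with a median of 11672.5 (10164.5 to 13888). Among the 11 classes of at least 50 cells this was the highest median, with pMN1 next at 11612.5 (9255.5 to 13720). The medians of pMN2, 10706, and pMN3, 10690, were also near, and the ratios to the 3 classes were 1.01, 1.09 and 1.09, none of them called. Of the 96 cells 78 (81.3%) were deeper than the library's median of 8935.5 UMIs. The whole interquartile range of pMN1 lay above that median as well, while those of pMN2 (from 4781) and pMN3 (from 8675) began below it. The deepest cell of the whole 24 hpf library, with 31813 UMIs, was an NM Progenitor cell named NP in the stage table, and 11 of the 96 cells were among the deepest 5% of the library. The sources used here do not say how doublets were handled, no caller could be run without gene values, and their part in these deep cells was not tested. At the other end, 1 cell had fewer than 2000 UMIs, and the same cell was the only one with more than 3% mitochondrial UMIs.

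Detected genes were compared over all cells and among cells of like depth. The median NM Progenitor cell had 2482.5 detected genes (2198 to 2772), the highest of the 11 classes, with 2375.5 in pMN1, 2296 in pMN2 and 2163 in pMN3 (1959.5 to 2464). The value was called higher only against pMN3, a ratio of 1.15. The call ended when cells were paired on UMI count, but the rule was met in the window of near equal depth given below. The paired medians were 2492 genes in NM Progenitor and 2342 in pMN3, at 11930.5 and 11921.5 UMIs. Among cells of 10000 to 12000 UMIs the medians were 2374.5 in NM Progenitor (26 cells), 2355 in pMN1, 2405.5 in pMN2 and 2196 in pMN3. Among cells of 8000 to 10000 UMIs they were 1985 in NM Progenitor (12 cells), 2140 in pMN1, 2029 in pMN2 and 1999 in pMN3. Among cells of 12000 to 15000 UMIs they were 2674 (34 cells), 2621, 2673 and 2435.5 in the same order. Depth was not equal in every window. In the shallowest the median was 8845 UMIs in NM Progenitor against 9324 in pMN1, and in the deepest 13302.5 against 12683.5 in pMN3. In the window of 10000 to 12000 UMIs it was near equal, at 10965 in NM Progenitor and from 10905.5 to 11083.5 in the pMN classes. There the gene median of NM Progenitor lay above the interquartile range of pMN3 (2091.75 to 2334.75), so it was higher by the rule. It lay inside the interquartile ranges of pMN1 and pMN2. No order of NM Progenitor and the pMN classes was read from the other windows. In pairs of cells within 10% of each other's UMI count, the NM Progenitor cell had more genes in 60 of 94 pairs with pMN1, 40 of 90 with pMN2 and 68 of 94 with pMN3. Lateral FP, the other name of some of these cells, had a higher gene median than NM Progenitor in each window. It was 2231.5, 2495 and 2689 genes from the shallowest window to the deepest. The median UMI count of Lateral FP over all its cells was 8636.5 (6992 to 10475), below that of NM Progenitor by the rule.

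No difference in mitochondrial share between NM Progenitor and the pMN classes was called by this rule. The median was 0.658% in NM Progenitor (0.560 to 0.852), 0.676% in pMN1, 0.764% in pMN2 and 0.679% in pMN3. The largest value in an NM Progenitor cell was 4.20%. The difference of medians was -0.0186 percentage points from pMN1, -0.106 from pMN2 and -0.0218 from pMN3.

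Depth moved with the phase call inside the class. The 45 cells called G2M had a median of 13374 UMIs (11340 to 15006), the 42 called S had 11101 (8994 to 12384) and the 9 called G1 had 9546 (6524 to 10342). Median genes went in the same order, with 2761, 2374.5 and 2008. The same order of G2M over S held in pMN1, at 12318 and 10708.5 UMIs, and in pMN3, at 13839 and 10326. In pMN2 the cells called S were far shallower, at 4327.5 UMIs against 11807, and had 1.40% mitochondrial UMIs against 0.691%. The S cells of NM Progenitor, at 0.685% mitochondrial, did not share that feature. The 9 NM Progenitor cells called G1 ran from 2688 to 12124 UMIs. The part of depth in the phase calls was not tested.

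**Figure D4:**
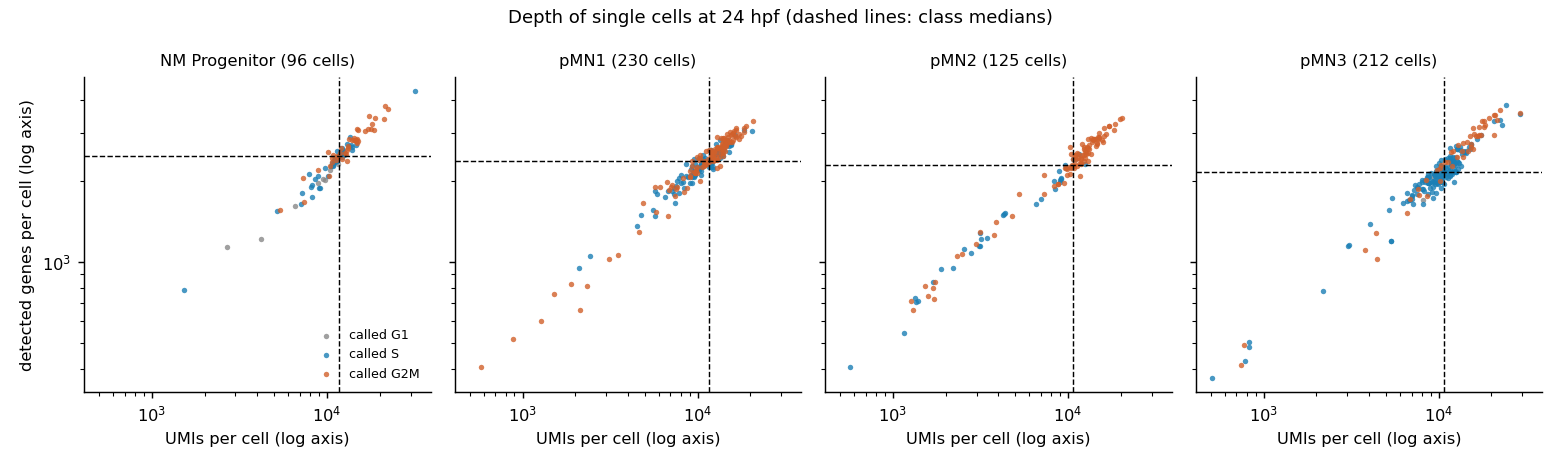
UMIs (horizontal) and detected genes (vertical) per cell at 24 hpf on log axes, 1 panel per class, coloured by phase call, with dashed lines at the class medians. NM Progenitor has few shallow cells, with 1 of 96 below 2000 UMIs, and its G2M cells lie toward the deep end.

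Within the class, the 66 cells named NM Progenitor by both tables were set beside the 30 cells with another stage name. The 66 had a median of 12357.5 UMIs (10409 to 14148) and 2559.5 genes, and the 30 had 10855.5 UMIs (9214.5 to 12124) and 2351 genes, values inside the range of the former. S or G2M calls were 89.4% (79.4 to 95.6) in the 66 and 93.3% (77.9 to 99.2) in the 30, and G2M calls were 47.0% and 46.7%. The integrated S score separated the 2 sets, with 33 of 66 cells above 0 (50.0%, 37.4 to 62.6) against 25 of 30 (83.3%, 65.3 to 94.4). By the S score made for that stage alone, 35 of 66 (53.0%) and 16 of 30 cells (53.3%) were above 0, so that difference was not present in the other set of scores. Among the 30, the 9 cells named pMN2 were 7 G2M and 2 S with no G1, and had a median G2M score of 0.395. The 14 cells named NP were 9 S, 4 G2M and 1 G1, with a median of 10483 UMIs, and the 7 named Lateral FP were 3 S, 3 G2M and 1 G1, with 10858.

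At 36 hpf the 13 cells were again deep for their library. Their UMI counts ran from 2896 to 18106 with a median of 7072 (5357 to 14233), and 12 of 13 were above the library's median. The pMN classes of that stage were near, at 6901, 6845 and 6433 UMIs for pMN1 to pMN3, and Lateral FP, the name of 11 of these cells in the stage table, was lower at 4637 (3543 to 6053). Against the floor plate class the 13 cells also had more genes, with medians of 1849 and 1405 (1145 to 1717). Among cells of 5000 to 8000 UMIs the order was the opposite, with 1605.5 genes in NM Progenitor (6 cells) and 1717 in Lateral FP (43 cells). Phase calls were 4 S, 5 G2M and 4 G1, the same in both tables for all 13 cells. The share called S or G2M was 69.2% (38.6 to 90.9). Its interval overlapped those of Lateral FP, at 43.6% (35.0 to 52.5), and of pMN3, at 89.5% (81.5 to 94.8). It lay below those of pMN1 and pMN2, at 100% each.

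At 48 hpf the 19 cells stood at the other end of depth. Their median was 4309 UMIs (3619.5 to 7336), and 6 of 19 were above the library's median. That was lower than in pMN1, at 10525 (8357.5 to 13735), and in pMN2, at 10203 (8381 to 11966), with ratios of 0.409 and 0.422. Against the 13 cells of pMN3, at 7936 (2625 to 11041), the NM Progenitor median was not called. It was also lower than in RG, the stage name of 6 of them, at 6708 (5500 to 7914), and not called against Lateral FP at 5576 (4208.5 to 7803). At 24 hpf the ratios to pMN1 and pMN2 were 1.01 and 1.09. The mitochondrial share, with a median of 1.76% (1.24 to 2.05), was lower than in RG, at 2.41%, and not called against pMN1, at 1.79%, or pMN2, at 2.11%.

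The cycling calls at 48 hpf depended on the table. The integrated calls gave 11 G2M, 5 S and 3 G1, which is 84.2% S or G2M (60.4 to 96.6). The 48 hpf table gave 4 G2M, 5 S and 10 G1, which is 47.4% (24.4 to 71.1), and all 7 cells that changed went from G2M to G1. The higher score lay within 0.1 of 0 in 10 of the 19 cells, and its median was 0.0957, against 0.390 in the 96 cells of 24 hpf. The 4 cells called G2M by both tables included 1 with a score of 0.156 and 3 with scores from 0.789 to 1.21. Motor neurons at 48 hpf were called S or G2M in 0.615% of 813 cells by the integrated table and in 18.9% by the stage table. A level of cycling in the 48 hpf cells was therefore not read from either set of calls.

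**Figure D5:**
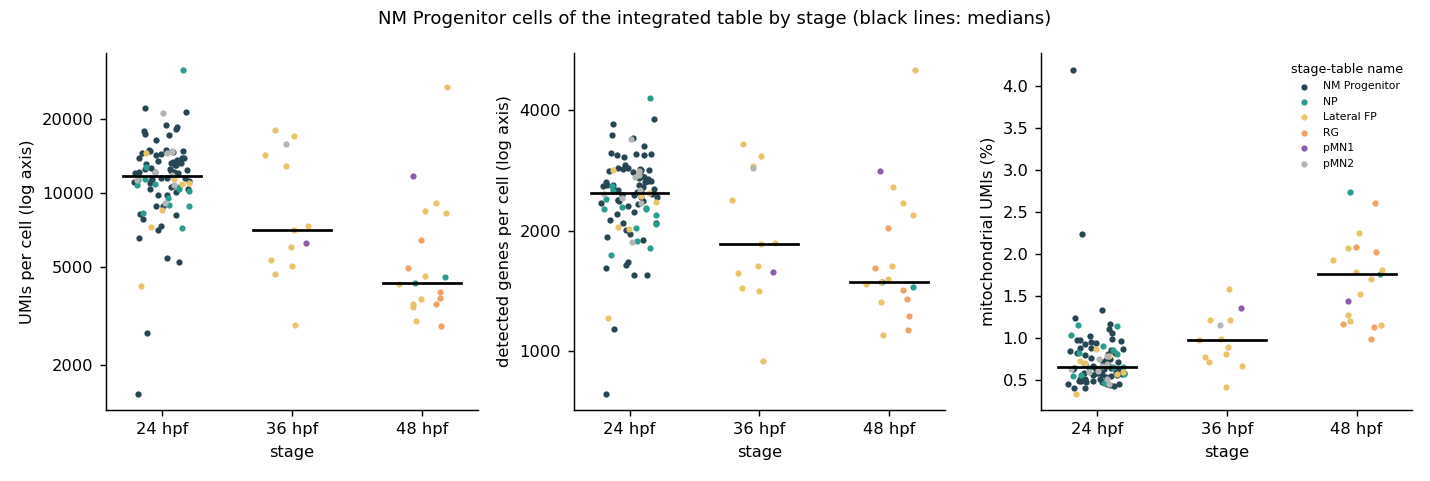
UMIs, detected genes (both on log axes) and mitochondrial share of each NM Progenitor cell by stage, coloured by stage-table name, with a black line at each median. The medians go from 11672.5 to 7072 and 4309 UMIs and from 0.658% to 0.977% and 1.76% mitochondrial over the 3 stages. The medians of the whole libraries were 8935.5, 4569 and 5774.5 UMIs and 0.686%, 1.06% and 2.35% mitochondrial. With 1 library per stage, changes in these cells cannot be told from changes between libraries. The stage-table name changes from mostly NM Progenitor to mostly Lateral FP.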

How the data were processed

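The labels' protocols describe a 10x Chromium 3' assay of sorted cells and Illumina sequencing. The submitters' processing notes name Seurat, Cell Ranger and GRCz11, without versions or settings. UMIs and detected genes per cell were deposited as raw counts. The deposited mitochondrial value is a percent of a cell's UMIs. It reached 4.995% at most, and the shallowest cell had 504 UMIs. The S and G2M values and embedding coordinates are scores the authors deposited, one set per table, from gene lists that the sources used here do not give. Integrated and stage tables were joined on stage and a barcode of 16 bases, which matched 6264 cells with equal UMI counts. Shares have exact (Clopper-Pearson) 95% intervals, which cover counting error only. Medians are given with interquartile ranges, in parentheses. Calls followed the 2 size rules in the text. For pairing on depth, each NM Progenitor cell took the unused pMN cell nearest in UMI count within 10%. Alternatives were cells of at least 2000 UMIs, leaving out the deepest 5%, at most 3% mitochondrial, stage-table names, stage-table calls and scores, and a score above 0.1. Interval and pairing code was tested on simulated data. No gene was named as a result by rule, and the marker list (tbxta, sox2 and markers of pMN, motor neuron, floor plate and mesoderm) could not be used, as no file held values per gene. The cells, classes and lists were chosen with earlier results of these data known. Intervals came from scipy 1.17.1, tables from pandas 2.3.3 and numpy 2.4.6 and plots from matplotlib 3.10.9, under Python 3.11.15.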

Additional observations from a re-analysis of the deposited data

How the results depend on the processing

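No paired analysis was possible because each stage had 1 library. Of 214 alternative values for 38 results at 24 hpf, 168 kept their call or, where nothing was called, moved less than the 95% interval of the NM Progenitor median or share allows. Some of these still changed sign or size. Without the deepest 5% the G2M score was 0.0588, the score difference 0.00804 and the latter against pMN1 0.0239, and the G2M score against pMN3 was 0.0741. By stage-table names the S score was -0.00512, G2M calls against pMN1 0.642 and mitochondrial share against pMN1 0.00736. By stage-table scores the score difference was 0.0468, and 0.0545 against pMN1, and paired on UMI count UMIs against pMN1 were -174.5. The filters at 2000 UMIs and at 3% mitochondrial removed the same 1 NM Progenitor cell, so NM Progenitor values could hardly move under them. These 2 filters gave 35 and 37 of the 168, so that count says little about stability. Values below are NM Progenitor minus the named class, in percentage points for shares. With at least 2000 UMIs, the G2M score against pMN2 (-0.821) and the score difference against pMN2 (1.00) became called, and genes against pMN3 (312.5) lost the call. The G2M score against pMN2 was also called without the deepest 5% (-0.862) and at no more than 3% mitochondrial (-0.810). Paired on UMI count, calls against pMN3 ended for S or G2M (-7.45), G2M (20.2), the score difference (-0.742) and genes (150). Those against pMN2 began for S calls (27.8), the G2M score (-0.909) and the score difference (1.08), and the S score against pMN1 (-0.218) became called. Other paired differences were -338 UMIs, 9.5 genes and -0.0209 percentage points mitochondrial for pMN2 and 9 UMIs for pMN3. With stage-table calls and scores, the call against pMN3 ended for S or G2M (-2.79), the S score (-0.198) and the score difference (-0.245). The G2M score against pMN2 became called (-0.546). The G2M score of NM Progenitor itself moved to -0.0157, the S score against pMN1 to -0.111 and the score difference against pMN2 to 0.590, on the other scale of that table.

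With stage-table names the class was 3.72% of the library. The names pMN1, pMN2 and pMN3 held the same cells for 117 of 230, 8 of 125 and 73 of 212 cells. These differences thus compare partly, and for pMN2 mostly, other cells. G2M calls reversed against pMN2 (12.4, from -25.9) and pMN3 (-2.93, from 23.8). Calls ended for S or G2M against pMN2 (-7.01) and pMN3 (-7.95), and against pMN3 for S calls (-5.02), the S score (-0.261), the score difference (-0.000374) and genes (429). Calls began against pMN1 for the S score (-0.388), UMIs (2347.5) and genes (347), and against pMN2 for the S score (-0.370). Values that moved without a call were S calls against pMN2 (-19.4), the G2M score against pMN2 (-0.0126) and pMN3 (-0.0778), and the score difference against pMN1 (-0.182) and pMN2 (-0.325). UMIs moved against pMN2 (116) and pMN3 (2349), and mitochondrial shares against pMN2 (-0.0349) and pMN3 (-0.0995). Causes were not tested. Cells could not be thinned to equal depth, and no replicate could be left out. With 96, 13 and 19 cells, small differences in shares were not detectable.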

Other observations

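In the deposited embeddings, whose distances have no unit, the neighbours of NM Progenitor cells were mostly of their own class. Of the 15 nearest cells of each 24 hpf member in the integrated embedding, 87.9% were NM Progenitor, 4.44% pMN1 and 2.71% Lateral FP. In the embedding of the 24 hpf table, which was made without the later stages, 81.5% were NM Progenitor by the integrated name, 5.69% pMN3, 4.31% pMN1 and 3.47% Lateral FP. At 36 and 48 hpf 87.7% and 86.3% of the neighbours in the integrated embedding were NM Progenitor. The class was drawn from the same cells and genes as the embeddings, so these values describe the layout and are no test.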
